A study of Mus musculus with 18 samples.

Results

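Azi2, Cmc1 and Golga4 are the protein-coding genes that adjoin Eomes on mouse chromosome 9, Cmc1 and then Azi2 on the upstream side and Golga4 on the downstream side, and their contact with the Eomes promoter was measured by NG Capture-C. Each gene was taken as its annotated body plus 5 kb upstream of its start in the mm9 build (NCBIM37, GENCODE vM1 annotation). The DpnII restriction fragments that overlap these 3 regions number 374 of the 301040 fragments of chromosome 9, of which 61 belong to Azi2, 178 to Cmc1 and 151 to Golga4, with 16 shared by Azi2 and Cmc1. Positions alone chose these fragments, so that none of their contact values was used in choosing them.

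The libraries came from embryonic stem cells (ESC, day 0, 129/Sv//EV strain), from definitive endoderm (DE) made from ES cells of the same strain through embryoid bodies in activin A and EGF and taken on day 5, and from erythrocytes dissociated from the spleens of phenylhydrazine-treated C57BL/6 mice. Each cell type had 3 libraries for the promoter viewpoints and 3 for the enhancer viewpoints, with no allele or deletion named in the labels. The study describes the libraries of a cell type as biological replicates, and the labels do not say which culture or animal each came from. ESC and DE are of one strain and erythrocytes of another, so that in comparisons with erythrocytes the strain and the cell type cannot be told apart. A lower value can come from fewer cells that make a contact or from less contact in each cell, which these bulk libraries do not separate. The comparisons of the cell types share libraries and are not independent of each other.

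NG Capture-C fixes chromatin, cuts it with DpnII, ligates fragments that were close in the nucleus and reads out what was joined to a chosen viewpoint. Contact usually falls steeply with distance along the chromosome, and it tends to stay high inside domains whose borders are often marked by convergent CTCF sites. Eomes encodes a T-box transcription factor that is needed for definitive endoderm. Azi2 encodes an adaptor of the TBK1 kinase in innate immune signalling. Cmc1 encodes a mitochondrial protein that takes part in cytochrome c oxidase assembly, and Golga4 a coiled-coil golgin of the trans-Golgi network.

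Azi2 lies at chr9:117949617-117978912 on the plus strand, with its start 437.7 kb upstream of the Eomes start. Cmc1 lies at chr9:117974213-118059198 on the minus strand, its start 328.1 kb upstream of the Eomes start, and its end overlaps that of Azi2. Golga4 lies at chr9:118415393-118491640 on the plus strand and starts 28.1 kb downstream of the Eomes start. The 200 bases upstream of each start are shown to mark the promoters of the genes, with each CG dinucleotide in capitals and the sequence read along the strand of the gene (NCBIM37):

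Azi2, chr9:117949417-117949616, plus strand: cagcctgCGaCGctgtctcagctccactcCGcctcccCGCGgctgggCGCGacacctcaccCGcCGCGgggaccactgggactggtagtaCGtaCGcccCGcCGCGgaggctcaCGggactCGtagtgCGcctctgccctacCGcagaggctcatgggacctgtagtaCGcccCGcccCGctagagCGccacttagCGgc

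Cmc1, chr9:118059199-118059398, minus strand: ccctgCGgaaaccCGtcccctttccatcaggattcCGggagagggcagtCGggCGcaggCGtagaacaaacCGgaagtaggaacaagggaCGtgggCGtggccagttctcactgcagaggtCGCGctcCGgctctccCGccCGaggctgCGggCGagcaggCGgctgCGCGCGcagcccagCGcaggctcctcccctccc

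Golga4, chr9:118415193-118415392, plus strand: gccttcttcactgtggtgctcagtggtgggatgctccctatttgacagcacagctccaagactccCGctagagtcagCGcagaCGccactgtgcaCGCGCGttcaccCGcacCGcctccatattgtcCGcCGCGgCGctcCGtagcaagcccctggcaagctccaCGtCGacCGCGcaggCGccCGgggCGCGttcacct

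All 3 upstream stretches were rich in CG. They held 24, 21 and 21 CG dinucleotides in 200 bases for Azi2, Cmc1 and Golga4, against a median of 1 in windows of that length along chromosome 9. As many as in Azi2 occurred in 0.116% of 603543 windows, and as many as in Cmc1 or Golga4 in 0.180%.

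The Eomes viewpoint gave between 7918 and 14490 reads on chromosome 9 in ESC libraries, 19387 to 33230 in DE and 4053 to 10912 in erythrocytes, so DE values rest on the most reads. Values are interactions per 100000 on chromosome 9, and intervals over such reads cover counting error only. The erythrocyte libraries were uneven, with 75.1% of reads on chromosome 9 in replicate 2 against 40.9% and 39.3% in replicates 1 and 3, and with 38.7% of chromosome 9 reads within 20 kb of the viewpoint in replicate 3 against 23.2% and 19.7%. From the Hba viewpoint, 13.7% to 19.5% of cis signal fell in the Nprl3 gene body in erythrocytes, where the alpha-globin enhancers lie, against 5.64% to 7.36% in ESC and DE. No marker of ESC or DE can be read from these data.

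Contact with all 3 genes stood far above the level of viewpoints on other chromosomes. Regions near a viewpoint on their own chromosome usually exceed such a level, so that it serves as a background and shows no trait of these genes. Per fragment and per 100000 interactions in all, Cmc1 held 12.4 from the Eomes promoter in DE. The mean over the Foxa2 and Lhx1 promoter libraries was 0.00418, from 2 reads. Golga4 held 15.1 and 0.0115, the latter from 4 reads. In erythrocytes, the lowest of the cell types for Cmc1, the Cmc1 values were 3.81 and 0.0155, the latter from 4 reads. The mean level per fragment of the Eomes viewpoint's own reads on other chromosomes came to at most 0.467% of the value of a member gene in the 9 libraries, with the highest share in Azi2 in erythrocyte replicate 3.

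**Figure D1:**
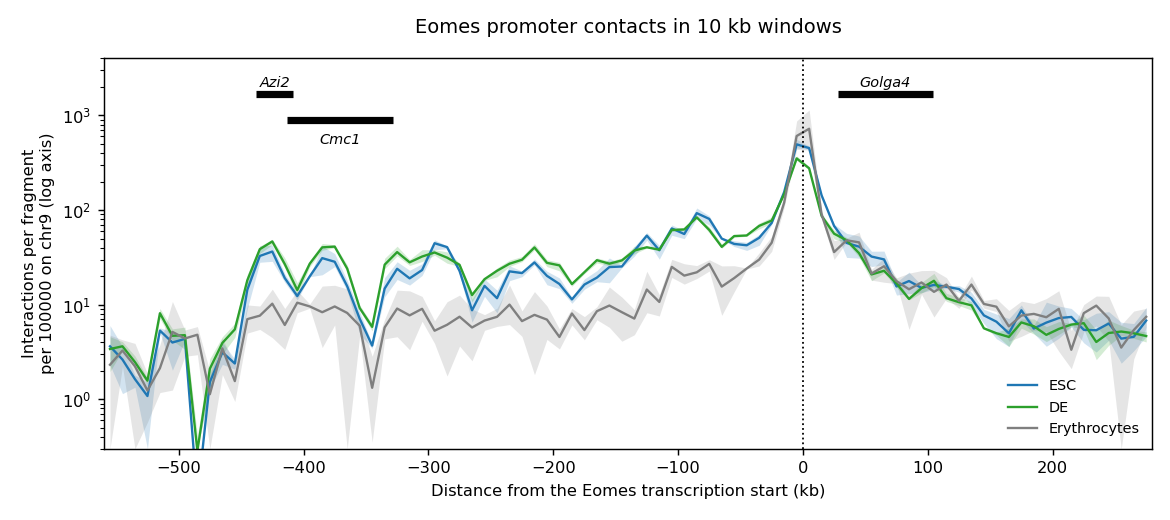
Mean interactions per fragment per 100000 on chromosome 9 (log axis) from the Eomes promoter in 10 kb windows, against distance from the Eomes transcription start in kb. Lines are means of 3 libraries and shading runs from the lowest to the highest library, cut at the lower edge of the plot; the black bars are the gene bodies. ESC and DE lines run above the erythrocyte line over Azi2, Cmc1 and the interval between Cmc1 and Eomes except its last 10 kb. There erythrocytes are highest, at 606 against 495 in ESC and 351 in DE. The 3 lines lie close together over Golga4.

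Azi2 was contacted most in DE, less in ESC and least in erythrocytes. The 3 DE libraries held 2027, 2010 and 1996 interactions per 100000, or 2011 ± 15.4 (SD, n = 3), from 1557 reads. The ESC libraries held 1494, 1822 and 1465, or 1594 ± 198 (SD, n = 3), from 518 reads. No ESC library reached a DE library. The erythrocyte libraries held 467, 621 and 321, or 470 ± 150 (SD, n = 3), from 95 reads, all below every ESC library.

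The 3 cell types kept the same order in Cmc1. The DE libraries held 3803, 3647 and 3791 interactions per 100000, or 3747 ± 86.8 (SD, n = 3), from 2889 reads. The ESC libraries held 2718, 2692 and 2665, or 2692 ± 26.7 (SD, n = 3), from 852 reads. Erythrocytes held 1164, 1403 and 1283, or 1283 ± 119 (SD, n = 3), from 249 reads. None of these groups overlapped another. ESC and DE libraries also did not overlap in Zcwpw2 and Itga9, the next genes outward, at means of 469 and 4397 in ESC and 636 and 3645 in DE. Other neighbouring genes did overlap, and no share over all gene regions is given here. Lack of overlap between ESC and DE is thus not particular to Azi2 and Cmc1.

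Golga4 did not follow this order. ESC libraries held 5003, 4817 and 3865 interactions per 100000, or 4562 ± 611 (SD, n = 3), from 1466 reads. DE libraries held 3957, 3834 and 3827, or 3873 ± 73.0 (SD, n = 3), from 2996 reads. ESC replicate 3 fell within the DE range while the other ESC libraries lay above it. Erythrocytes held 3922, 3927 and 3232, or 3694 ± 400 (SD, n = 3), from 755 reads, and overlapped both other groups.

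**Figure D2:**
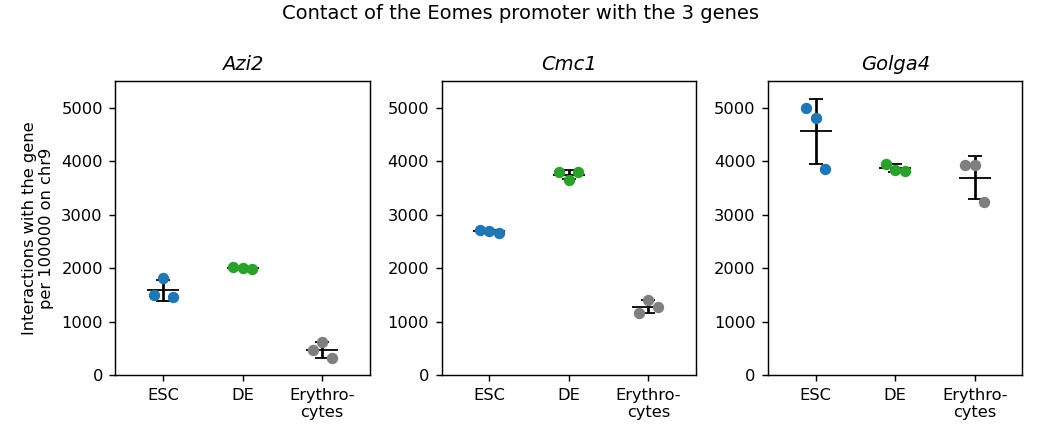
Interactions of the Eomes promoter with each gene per 100000 on chromosome 9 (vertical axis, from 0) in ESC, DE and erythrocytes. Points are the 3 libraries of a cell type, the horizontal bar is their mean and the whiskers 1 SD. Azi2 and Cmc1 step down from DE to ESC to erythrocytes without overlap, from means of 2011 to 470 and of 3747 to 1283, and the groups overlap in Golga4.

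Per kb of region, which allows genes of unlike length to be set side by side, Azi2 and Golga4 held like levels in ESC and DE although Azi2 lies many times farther from the promoter. The level per kb was 46.1 ± 5.73 (SD, n = 3) for Azi2 and 55.7 ± 7.46 for Golga4 in ESC, and 58.2 ± 0.445 and 47.3 ± 0.892 in DE. Cmc1, nearer than Azi2, had 29.8 ± 0.295 in ESC and 41.4 ± 0.960 in DE. In erythrocytes Golga4 stood at 45.1 ± 4.88 per kb, against 13.6 ± 4.35 in Azi2 and 14.2 ± 1.32 in Cmc1.

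The genes just beyond the members had lower levels over their whole regions. Zcwpw2, a zinc finger gene that starts 464.1 kb upstream, had 6.47 ± 0.562 per kb in ESC, 8.78 ± 0.368 in DE and 7.69 ± 1.68 in erythrocytes (SD, n = 3). Per fragment, Azi2 was 11.3 ± 0.598 times Zcwpw2 in ESC, 10.5 ± 0.371 times in DE and 2.79 ± 0.566 times in erythrocytes. On the other side, Golga4 was 4.77 ± 0.932 times Itga9, an integrin gene, in ESC, 4.86 ± 0.370 times in DE and 4.28 ± 0.410 times in erythrocytes, with no comparable step between the cell types. These ratios were computed after the levels had been seen and were not tested.

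Between DE and ESC, no member gene passed the threshold of an adjusted p under 0.05. Log2 fold changes on log2 of the value plus 10, as DE minus ESC, were 0.34 for Azi2 (standard error 0.33, adjusted p = 0.65 from limma), 0.48 for Cmc1 (0.32, adjusted p = 0.60) and -0.23 for Golga4 (0.33, adjusted p = 0.75). Of 465 gene regions of the chromosome, 3 were called, or 0.645%. This fit estimates one spread for regions of many and of few reads. On the reads recovered from the same values, edgeR's quasi-likelihood test called all 3 genes, at adjusted p = 0.0089, 2.4e-09 and 0.0040, with 2.15% of regions called higher and 2.58% lower in DE. A limma fit in which the spread may follow the level gave adjusted p = 0.015, 1.2e-06 and 0.043, with 2.15% of regions higher and 2.37% lower, but it was chosen after the fit without a trend had been seen.

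The other regions shifted too. The median of all gene regions tested was 0.31 higher in DE. It was 0.55 with a pseudocount of 2, 0.11 with a pseudocount of 50 and 0.17 in DESeq2. Relative to the median, the DE minus ESC difference was 0.027 for Azi2, with a range of -0.21 to 0.23 over 21 alternatives. For Cmc1 it was 0.16, with a range of -0.077 to 0.36. The lowest value of both came with a pseudocount of 2 and was below 0, so that neither direction was settled. For Golga4 it was -0.54, with a range of -0.78 to -0.33. The share of reads within 20 kb of the viewpoint also differed, at 15.4% ± 0.358 in DE and 22.3% ± 1.01 in ESC (SD, n = 3), and its part in these differences was not tested.

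In erythrocytes Azi2 was well below both other cell types, and only in Azi2 against DE did the difference pass the threshold in limma. Against DE the log2 fold change was -2.12 for Azi2 (standard error 0.40, adjusted p = 0.049 from limma), while 2.01% of 447 gene regions were called and 0.671% were called lower. Leaving out any library of either cell type ended this call, as erythrocyte replicate 1 did at adjusted p = 0.053, erythrocyte replicate 2 at 0.091, erythrocyte replicate 3 at 0.064, and DE replicates 1 to 3 at 0.20, 0.17 and 0.19 from limma. For Cmc1 it was -1.54 (0.36, adjusted p = 0.081), and for Golga4 -0.07 (0.36, adjusted p = 0.91).

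Against ESC, the log2 fold changes of erythrocytes were -1.78 for Azi2 (standard error 0.47, adjusted p = 0.061 from limma), -1.07 for Cmc1 (0.43, adjusted p = 0.17) and -0.30 for Golga4 (0.44, adjusted p = 0.75), while 5.73% of 279 gene regions were called. The edgeR test called Azi2 and Cmc1 lower in erythrocytes against both, at adjusted p = 1.3e-14 and 3.6e-08 against ESC and 4.0e-26 and 5.9e-23 against DE. It gave 0.21 and 0.85 for Golga4. In edgeR 5.02% of regions were lower and 11.1% higher against ESC, and 1.79% lower and 7.38% higher against DE.

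Summed over each region, the erythrocyte differences of Azi2 and Cmc1 exceeded the shift of the median gene region. The median gene region changed by 0.42 against ESC and by -0.08 against DE, and by -0.09 and -0.58 with TMM scaling. Relative to the median, Azi2 was lower by a log2 difference of -2.20 against ESC and -2.04 against DE, with ranges of -2.45 to -1.84 and -2.37 to -1.77 over 21 alternatives. Cmc1 was at -1.49 and -1.46, with ranges of -1.76 to -1.13 and -1.79 to -1.18. Golga4 was at -0.72 against ESC, with a range of -0.97 to -0.36, the smallest size with no minimum count. Against DE it was at 0.0063, between -0.33 and 0.30, so that its direction there was not settled. Single fragments with at least 10 reads lay nearer their background. Against ESC their median log2 difference was -1.17 in Azi2, -1.07 in Cmc1 and -0.53 in Golga4, beside -1.07 over all 695 fragments tested. Against DE the medians were -1.51, -1.29 and -0.27, beside -1.06 over all 1202. At this level Cmc1 against ESC did not exceed the background.

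The ratio of Golga4 to Cmc1 within a library does not depend on scaling. Per fragment it was 2.17, 2.11 and 1.71 in the ESC libraries, 1.23, 1.24 and 1.19 in DE and 3.97, 3.30 and 2.97 in erythrocytes, so that the 3 cell types did not overlap. The DE ratio was 0.614 times that of ESC, and the erythrocyte ratio was 1.71 times that of ESC and 2.78 times that of DE. An exact two-sided permutation test gave p = 0.1 for each, the smallest that 3 against 3 libraries allow (0.15 after Benjamini-Hochberg adjustment over 18 such comparisons).

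The ratio of the pair on one side was lowest in erythrocytes. The ratio of Azi2 to Cmc1 per fragment was 1.60, 1.98 and 1.60 in ESC and 1.56, 1.61 and 1.54 in DE (exact two-sided permutation test, p = 0.3). Erythrocytes, at 1.17, 1.29 and 0.730, were below both, with exact p = 0.1 for each and 0.15 adjusted. The pair shares 16 fragments, which count in both genes, and this ratio was added after the levels had been seen.

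Distance was matched by taking fragments as far from the Eomes start as each gene but outside the 3 genes. All such fragments lay on the other side of the viewpoint, so that Azi2 and Cmc1 were set against fragments in and around Itga9 and Golga4 against the upstream side. Azi2 held 3.34 ± 0.458 times the contact per fragment of its 82 matched fragments in ESC, 5.02 ± 0.414 times in DE and 2.28 ± 0.266 times in erythrocytes (SD, n = 3). Libraries ranged from 3.06 to 3.86 in ESC, from 4.56 to 5.36 in DE and from 1.98 to 2.50 in erythrocytes. No groups overlapped, and each exact two-sided permutation test gave p = 0.1 (0.15 adjusted). Against fragments on its own side, at 0.5 to 1.5 times its distance, the log2 difference of DE minus ESC was 0.13 in place of 0.60 (exact permutation p = 0.4).

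Cmc1 held 2.47 ± 0.325 times the contact of its 211 matched fragments in ESC and 4.15 ± 0.543 times in DE (SD, n = 3), again without overlap (exact permutation p = 0.1). In erythrocytes the libraries gave 1.75, 1.73 and 3.85. The third rests on 16 matched reads, and with it erythrocytes were not separated from ESC (exact p = 0.8) or DE (exact p = 0.2). Without erythrocyte replicate 3 the log2 difference from ESC was -0.50 in place of -0.12, and that from DE -1.24 in place of -0.86. Against fragments on its own side, DE minus ESC was 0.18 in place of 0.75, erythrocytes minus DE -0.012 in place of -0.86, and erythrocytes minus ESC 0.17 in place of -0.12.

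Per fragment, Golga4 had less contact than the mirrored upstream fragments in ESC and DE and as much as these in erythrocytes. The ratio was 0.559, 0.559 and 0.463 in ESC, 0.421, 0.438 and 0.431 in DE and 1.05, 0.944 and 1.00 in erythrocytes. The groups did not overlap (exact two-sided permutation p = 0.1 for each pair, 0.15 adjusted). Per kb the ratio was 0.408 ± 0.043 in ESC, 0.333 ± 0.0065 in DE and 0.773 ± 0.040 in erythrocytes (SD, n = 3). In that unit Golga4 was below the mirrored fragments in erythrocytes too. The matched side itself moved, from 55.2 to 59.3 interactions per fragment in the ESC libraries and 58.0 to 62.3 in DE to between 21.4 and 27.5 in erythrocytes. Against fragments on Golga4's own side, at 0.5 to 1.5 times its distance, the log2 difference was 0.29 for DE minus ESC in place of -0.29, -0.29 for erythrocytes minus DE in place of 1.21, and 0.0017 for erythrocytes minus ESC in place of 0.93 (exact permutation p = 1), so that these differences depend on the side compared.

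**Figure D3:**
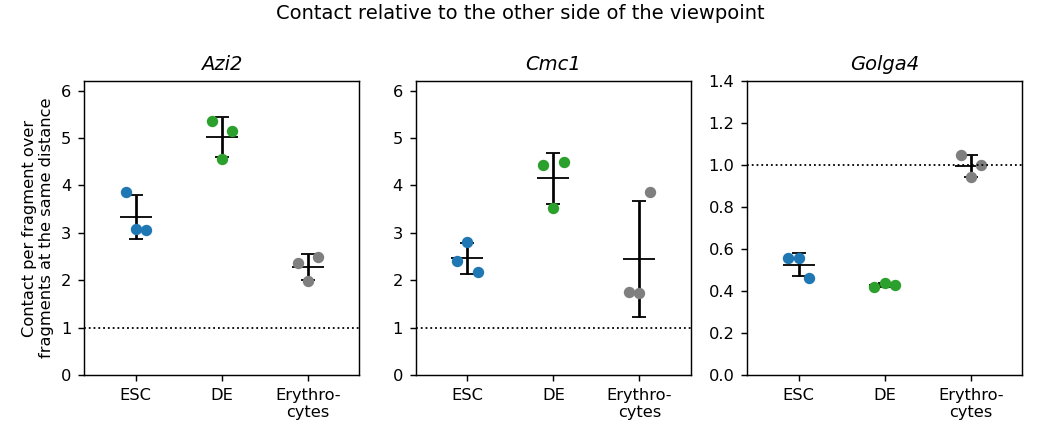
Contact per fragment of each gene divided by that of fragments at the same distance on the other side of the Eomes viewpoint, in ESC, DE and erythrocytes. Points are libraries, bars means and whiskers 1 SD, and the dotted line marks a ratio of 1. The Golga4 axis is shorter. Azi2 and Cmc1 lie above 1 in all 9 libraries and Golga4 between 0.421 and 0.559 in ESC and DE but between 0.944 and 1.05 in erythrocytes.

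Contact was not even along the genes, as windows added after the levels had been seen describe. Over Cmc1 the pooled ratio to the mirrored window was 6.07 in ESC, 6.14 in DE and 3.75 in erythrocytes at 320 to 330 kb, which holds its start. It fell to 0.664, 1.01 and 0.159 at 340 to 350 kb, the last from 5 reads, and was 4.90, 6.99 and 2.15 at 370 to 380 kb. Over Golga4 it lay between 0.766 and 0.957 in ESC up to 60 kb and between 0.194 and 0.325 beyond 70 kb. In DE the same windows spanned 0.402 to 0.710 and 0.138 to 0.336.

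**Figure D4:**
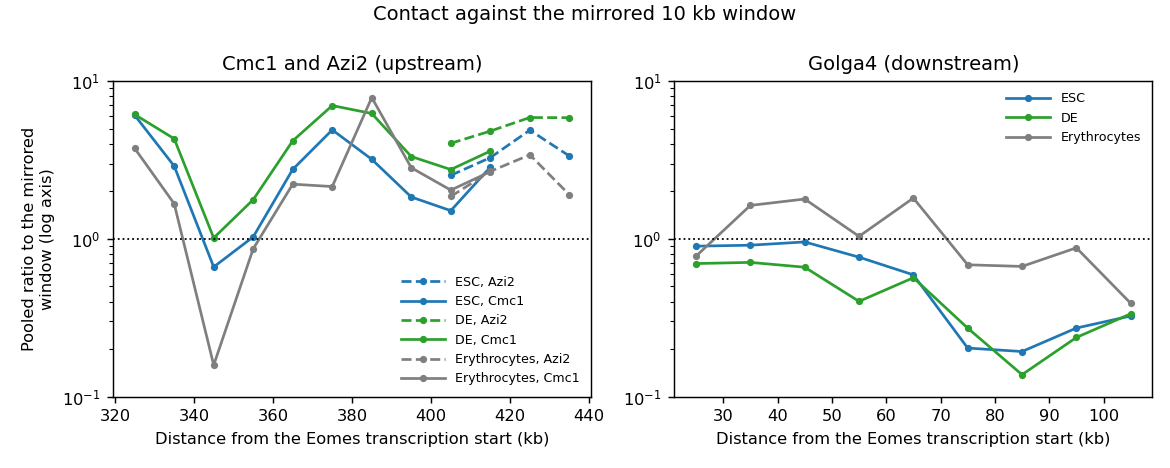
Contact per fragment in 10 kb windows of each gene divided by that of the mirrored window at the same distance (log axis), with the reads of 3 libraries pooled, against distance from the Eomes start in kb. Dashed lines are Azi2 and solid lines Cmc1 on the left, and the dotted line marks a ratio of 1. Cmc1 dips at 340 to 350 kb in all cell types, and Golga4 in ESC and DE lies furthest below 1 beyond 70 kb.

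The part of Golga4 nearer to Eomes, with its start, held more contact per fragment than the part farther away, the gene being divided at its middle. The ratio of the 5-prime to the 3-prime part was 2.96, 2.74 and 2.75 in ESC, 2.83, 2.85 and 2.37 in DE and 2.38, 1.63 and 3.22 in erythrocytes. The groups overlapped in every pair, with exact two-sided permutation p between 0.5 and 0.7. Against fragments at matched distance, the far part had overlapping ratios of 0.201 to 0.251 in ESC and 0.216 to 0.237 in DE. The near part did not overlap, at 0.857 to 1.02 and 0.654 to 0.689, and this was not tested.

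Single fragments were shallow. Of the 374, 319 had a read in at least 1 ESC library, 326 in DE and 258 in erythrocytes, and 56 had reads in all 3 erythrocyte libraries. No member fragment differed between DE and ESC in limma, of 280 with at least 10 reads, and none of all 1372 such fragments did either (0% called). Before adjustment 26 members had p below 0.05, 20 of them higher in DE. No member was called by edgeR, which called 0.146% of all fragments higher and 1.38% lower, or by DESeq2, which called 0% and 0.583%. The median log2 difference was 0.43 over the 110 Cmc1 fragments tested, 0.39 over 57 of Azi2 and -0.07 over 126 of Golga4. It was 0.25 over the 280 members together and 0.12 over all 1372 fragments.

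Between erythrocytes and DE, 75 of 270 member fragments were lower in erythrocytes and 1 was higher, against 27.0% lower and 0.582% higher of all 1202 fragments tested. The share over the members, 27.8%, is near that background. It was uneven among the genes, with 27 of 55 in Azi2, 42 of 106 in Cmc1 and 8 of 121 in Golga4. edgeR called 33 lower, 17 of them in Azi2, 16 in Cmc1 and 1 in Golga4, against 14.5% of all fragments, and 2 higher, both in Golga4, against 1.25%. DESeq2 called none, against 0.25% lower and 1.16% higher of all fragments. In limma the total of 76 fell to 28, 30 and 34 without DE replicates 1, 2 and 3. A fragment could pass the minimum of 10 reads through DE alone. Of the 75, 40 had no read in erythrocytes and 73 were under the 15.0 interactions per 100000 that 3 reads over the group amount to.

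Against ESC, 6 of 160 member fragments were lower in erythrocytes and none was higher, fewer than the 12.5% lower of all 695 fragments tested. Azi2 had 3 of these, Cmc1 2 and Golga4 1, and leaving out ESC replicate 1, 2 or 3 gave a total of 0, 1 or 0. Leaving out erythrocyte replicate 1 gave 13 and erythrocyte replicate 2 gave 10. A short intronic fragment of Azi2 and that of Golga4 are shown, with erythrocyte contact at or near 0 in both. GATC, the DpnII site, is in capitals at both ends, and the listed fragments were extended by 2 bases on each side to hold it whole (plus strand of NCBIM37):

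Azi2 intron, chr9:117952501-117952758: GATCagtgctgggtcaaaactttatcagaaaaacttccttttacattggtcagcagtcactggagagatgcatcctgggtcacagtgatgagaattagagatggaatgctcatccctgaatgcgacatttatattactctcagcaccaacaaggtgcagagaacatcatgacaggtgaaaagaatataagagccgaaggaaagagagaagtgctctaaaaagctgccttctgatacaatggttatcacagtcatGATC

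Golga4 intron, chr9:118416009-118416131: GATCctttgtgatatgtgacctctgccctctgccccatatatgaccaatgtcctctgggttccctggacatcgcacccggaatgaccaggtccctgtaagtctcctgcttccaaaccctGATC

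The Azi2 fragment, at -434.7 kb from the Eomes start, held 54.1, 62.1 and 37.9 interactions per 100000 in ESC, from 17 reads, and 48.5, 33.1 and 30.9 in DE, from 29 reads. It held none in erythrocytes (log2 fold change against ESC -2.60, adjusted p = 0.023 from limma). The pooled ESC value was 3.57 times the floor of 3 reads in the erythrocyte group, leaving aside the counting error of the 17 ESC reads. The Golga4 fragment lies just inside the gene, 28.7 kb downstream, and held 75.8, 55.2 and 63.1 in ESC and 40.4, 30.1 and 15.5 in DE. Erythrocytes had 18.3, 0 and 0, from 2 reads (log2 fold change against ESC -2.39, adjusted p = 0.033 from limma). Both fragments were picked because they were called lower in erythrocytes, so that the lack of overlap between their libraries follows from the choice.

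At the starts themselves, no fragment was called in any of the 3 comparisons. The fragment with the Cmc1 start, chr9:118058294-118059707, had the highest DE mean among the Cmc1 fragments named, at 76.4 ± 11.4 (SD, n = 3) from 60 reads, against 54.3 ± 37.7 in ESC from 16 reads and 21.6 ± 20.2 in erythrocytes from 3 reads. The Golga4 start fragment, chr9:118415134-118415628, had 76.0 ± 21.7 in ESC, 69.0 ± 37.0 in DE and 18.9 ± 18.4 in erythrocytes. The Azi2 start fragment, chr9:117948192-117950085, had 33.3 ± 31.3 in ESC, 49.8 ± 11.8 in DE and 21.4 ± 37.0 in erythrocytes.

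The 2 Golga4 fragments with the highest mean over the cell types were both upstream of the gene. The one at chr9:118410137-118410510 had 119 ± 17.1 in ESC, 86.9 ± 33.0 in DE and 53.9 ± 23.9 in erythrocytes (SD, n = 3). The one at chr9:118414388-118414798 had 103 ± 35.2, 87.6 ± 5.17 and 51.2 ± 12.1. The 1 member fragment called higher in erythrocytes than in DE, chr9:118485015-118485642 in a Golga4 intron, had 30.2 ± 13.7 in erythrocytes from 7 reads and 4.41 ± 4.09 in DE from 3 reads (adjusted p = 0.038 from limma).

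The enhancer viewpoints VPE, PSE_a and PSE_b, gene-proximal elements at Eomes, showed the members in like order. From VPE, Azi2 held 1795 ± 16.3 interactions per 100000 in ESC, 2747 ± 134 in DE and 782 ± 138 in erythrocytes (SD, n = 3). Cmc1 held 2695 ± 65.8, 4314 ± 31.5 and 1214 ± 65.3, and Golga4 6845 ± 283, 5306 ± 45.5 and 4939 ± 320. In all 3 genes ESC and DE libraries did not overlap from VPE. The outer genes were apart too, Zcwpw2 at 419 ± 36.3 in ESC and 787 ± 14.8 in DE, and Itga9 at 5634 ± 128 and 4368 ± 77.2. No share over all gene regions from VPE is given here, so this lack of overlap shows nothing particular to the members. Whether the promoter and enhancer captures were made from the same ligated libraries is not given in the sources used here.

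From PSE_a and PSE_b the same sides were taken, with smaller differences in Azi2. From PSE_a, Azi2 had 1231 ± 110 in ESC and 1509 ± 38.8 in DE, Cmc1 2112 ± 140 and 3078 ± 157, and Golga4 3582 ± 307 and 3127 ± 168 (SD, n = 3). From PSE_b, Cmc1 had 2174 ± 211 and 3079 ± 175, Azi2 1216 ± 216 and 1371 ± 141, and Golga4 4122 ± 365 and 3320 ± 285. In limma none of the 9 DE and ESC comparisons passed the threshold, with adjusted p between 0.29 and 0.81 and 0.185% of gene regions called from VPE and 0% from PSE_a and PSE_b. The edgeR test called 6 of the 9, all 3 genes from VPE, Cmc1 from PSE_a, and Cmc1 and Golga4 from PSE_b. In edgeR 2.22% of regions were higher and 1.67% lower in DE from VPE, 2.45% and 2.04% from PSE_a, and 0.692% and 1.38% from PSE_b.

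**Figure D5:**
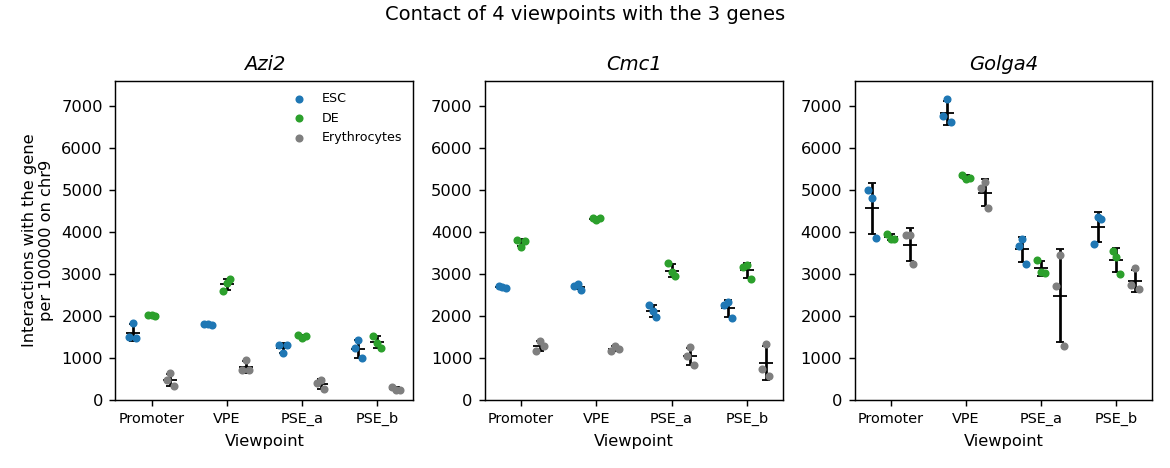
Interactions with each gene per 100000 on chromosome 9 (vertical axis, from 0) from the Eomes promoter, VPE, PSE_a and PSE_b viewpoints. Points are libraries, bars means and whiskers 1 SD, in the order ESC, DE and erythrocytes at each viewpoint. Erythrocyte libraries are lowest in Azi2 and Cmc1 from all 4 viewpoints, and Golga4 has its highest values in ESC from VPE, at 6845.

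Among the 31 other protein-coding genes within 2 Mb, none was called between DE and ESC in limma, while edgeR called 6. Plcd1, a phospholipase C gene, was lower in erythrocytes than in ESC, at 106 against 487 interactions per 100000 (log2 fold change -2.18, adjusted p = 0.041 from limma). Gm10608, a predicted gene, had no read in erythrocytes against 82.8 in ESC and 62.4 in DE (adjusted p = 0.018 and 0.035 from limma). It passed the minimum count through ESC or DE alone. Its erythrocyte values entered the fit as the pseudocount without spread, so that both p-values depend on this setting. The erythrocyte level is known only to lie under the 15.0 interactions per 100000 that 3 reads over the group amount to. Without single libraries at most 1 of the neighbouring genes was called in erythrocytes against ESC and none against DE. Over the 9 libraries, the profile of Azi2 correlated with that of Cmc1 at r = 0.96, but with that of Golga4 at 0.51, and Cmc1 with Golga4 at 0.32 (Pearson's r of log2 values, a description over libraries of one viewpoint). Azi2 and Cmc1 have 16 fragments in common, which count in both and can raise their r, while neither shares a fragment with Golga4. Among 59 other gene regions with at least 90 reads, those most like Azi2 were Plcd1, Vill and Dlec1, at r = 0.87, 0.83 and 0.82, those most like Cmc1 were Plcd1, Exog and Acaa1b, at 0.79, 0.78 and 0.77, and those most like Golga4 were Zic4 and Ctdspl, at 0.82 and 0.75.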

How the data were processed

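The authors aligned NG Capture-C reads to mm9 (Trim Galore and Bowtie are named in the submitters' processing notes, versions not given in the sources used here), and deposited, per DpnII fragment, a signal scaled to 100000 interactions per library and viewpoint. All values used were whole multiples of 1 read within 0.05, so reads were recovered. Fragments without a read are not listed and were set to 0 from a DpnII digest of NCBIM37, which held all 106254 listed chromosome 9 fragments. Of 108 columns, 63 were used.

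Signals were rescaled to 100000 interactions on chromosome 9, with fragments inside the captured zone left out. Groups came from the labels. limma's lmFit and eBayes were run on log2 of the value plus 10, over regions or fragments with at least 10 reads, adjusted by Benjamini-Hochberg, and calls had an adjusted p under 0.05. Changes on this scale understate changes of low values. The design as written gives eBayes without a trend, and this fit is reported. A fit with a mean-variance trend was added after the results without it had been seen. edgeR and DESeq2 were run on the recovered reads as alternatives. For ratios within a library, exact two-sided permutation tests were used. Ratios of Azi2 to Cmc1, of genes to their outer neighbours and to mirrored windows were added after the levels had been seen. One gene of the likeness ranking is not reported here. Members and lists were chosen with earlier results of these data known. Named fragments are those at the gene start, the 2 highest by mean and those called (all up to 5, else the 2 largest each way). Counts were simulated with 200 gene regions changed 4-fold. Of these, limma recovered 53.0% in DE against ESC (of 436 regions tested), 65.0% in erythrocytes against ESC (275) and 42.0% against DE (449). edgeR recovered 56.0%, 67.5% and 51.0%, and DESeq2 36.0%, 21.5% and 18.5%. False calls made up 8.62%, 2.26% and 3.45% of calls in limma, 4.27%, 1.46% and 0% in edgeR and 0%, 6.52% and 9.76% in DESeq2. The DE and ESC differences of the member genes were smaller than 4-fold, and their recovery was not simulated. R 4.3.3, limma 3.58.1, edgeR 4.0.16, DESeq2 1.42.0, Python 3.11.15 and scipy 1.17.1 were used.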

Additional observations from a re-analysis of the deposited data

How the results depend on the processing

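The log2 fold changes of the Azi2 and Cmc1 regions, not taken relative to the median, kept their direction under the 21 alternatives, while calls changed with the test, the scaling, the pseudocount, the minimum count and the region. The cause was not tested. Log2 fold changes are given in the order Azi2, Cmc1, Golga4. DE against ESC became called with edgeR (0.31, 0.47, -0.25), with DESeq2 (Cmc1 0.35, Golga4 -0.37) and with the added trend in limma (0.34, 0.48, -0.23). Erythrocytes against ESC became called with edgeR (-1.75, -1.09), DESeq2 (-2.37, -1.68, -0.90), TMM (-2.47, -1.76), a pseudocount of 50 (-1.70, -1.04), the trend (-1.78, -1.07), all 3 cell types in the fit (-1.78, -1.07) and, for Azi2, all interactions as the total (-2.09). Erythrocytes against DE became called in Cmc1 with edgeR (-1.57), DESeq2 (-2.24, and Golga4 -0.72), TMM (-2.37), a pseudocount of 50 (-1.51), the trend and the absence of a minimum count (both -1.54). The Azi2 call against DE was lost with a pseudocount of 2 (-2.14), all interactions as the total (-2.34), no upstream part (-2.11), 10 kb upstream (-2.004) and midpoint assignment (-2.17). Golga4 against DE reversed without the 20 kb around the viewpoint (0.15) and without an upstream part (0.039).

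At matched distance, same-side fragments reversed Cmc1 in erythrocytes against ESC (0.17) and Golga4 in DE against ESC (0.29) and erythrocytes against DE (-0.29). The first 20 kb of Golga4 against the rest reversed its near-to-far ratio in DE against ESC (0.13).

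Member fragments called for erythrocytes against ESC numbered 0 with DESeq2, 2 with TMM, 31 with no minimum count, 13 with all interactions, 20 with 3 cell types and 3 in 5 kb bins. Against DE they numbered 35 with edgeR, 0 with DESeq2, 44 with TMM, 40 with no minimum count and 0 in 5 kb bins. A share over all fragments is given above only for edgeR and DESeq2 against DE. The other counts have no such share beside them, nor do those with single libraries left out. They show how the number of calls moves and nothing particular to the members. Neighbouring genes called numbered, for DE against ESC, 6 with edgeR, 4 with DESeq2, 4 with a pseudocount of 50 and 5 with the trend. Against ESC in erythrocytes they numbered 9 with edgeR, 9 with DESeq2, 5 with TMM, 1 with a pseudocount of 2, 7 with 50, 1 with no minimum count, 8 with the trend and 6 with 3 cell types, and against DE 9, 14, 2 (TMM), 6 (a pseudocount of 50) and 6 (trend). From the enhancer viewpoints the calls between DE and ESC were 6 with edgeR, 5 with DESeq2, 1 with a pseudocount of 50 and 6 with the trend, against 0.

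Leaving out single libraries gave DE against ESC 0.28 to 0.44 for Azi2, 0.46 to 0.50 for Cmc1 and -0.34 to -0.16 for Golga4. It gave erythrocytes against ESC -2.01 to -1.54, -1.13 to -0.999 and -0.42 to -0.21, and against DE -2.35 to -1.88, -1.61 to -1.47 and -0.12 to 0.019, the last without erythrocyte replicate 3. At matched distance Cmc1 in erythrocytes against ESC ranged from -0.50 to 0.080, above 0 without erythrocyte replicate 1 or 2. The ratio of the near to the far part of Golga4 ranged from -0.12 to 0.014 in DE against ESC, above 0 without DE replicate 3, and from -0.44 to 0.050 in erythrocytes against DE, above 0 without erythrocyte replicate 2. Member fragments called ranged from 0 to 13 against ESC and from 28 to 91 against DE, with the lowest of the latter without DE replicate 1, and neighbouring genes from 0 to 1 and at 0.

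Deviations of same-numbered libraries correlated between -0.11 and 0.17. Whether the replicate numbers pair the libraries is not settled by this. Libraries of a cell type differed by little more than counting error, with a chi-square per degree of freedom of 1.05 to 1.51. Deviations of that size can hide a pairing. With the replicate block the Azi2 call against DE was lost (-2.12, adjusted p = 0.12 from limma), member fragments called against ESC fell to 0 and neighbouring genes to 0 in both erythrocyte comparisons, and it changed no other call. Depth limits the erythrocyte values, with 13 to 51 Azi2 reads in a library.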
